A study of Mus musculus with 9 samples.

Results

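Mouse ES cells kept for 3 h without Cys were compared with the same cells kept in complete medium, in 6 of the 9 libraries of the experiment, which were chosen by their labels. All 20143 genes with at least 1 count among the 20189 listed were tested, and the weight is on expressed genes and on the pathways that moved most. The cells were wild type E14, a single line of mouse ES cells grown on gelatin. The 3 Cys-starved libraries came from medium without Cys and the 3 unstarved libraries from medium with all amino acids. A further 3 libraries came from Thr-starved cells and are used only to show where the Cys response differed. The labels give for every library a SILAC medium with L-Lys, glucose, GlutaMAX, LIF, β-mercaptoethanol and 5% dialyzed serum, from which small molecules such as free amino acids are removed. Their treatment text names Arg and Leu only, though, the study's methods tie that medium to the withdrawal of these, and for the cell death experiments they describe another medium without Cys. The base medium of the Cys-starved libraries is therefore uncertain, and an effect of the base medium cannot be told apart from one of Cys if it differed between the groups. The amino acid withheld was read from the sample titles. The labels do not say that replicates were separate cultures, so the p-values measure only the spread between these libraries, which may be technical.

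Cys enters cultured cells mostly as cystine through an antiporter, a dimer of Slc7a11 (xCT) and Slc3a2. It can also be made from Met through transsulfuration by Cbs and Cth. It is used for protein, for the tripeptide glutathione (GSH), which keeps peroxides and lipid peroxides in check through enzymes such as Gpx4, and for iron-sulfur clusters and coenzyme A. An uncharged tRNA activates the kinase GCN2 (Eif2ak4) and with it the integrated stress response (ISR), in which the transcription factor ATF4 induces genes of amino acid uptake, synthesis and tRNA charging. Electrophiles and oxidants activate a separate factor, NRF2 (Nfe2l2), which induces enzymes of GSH synthesis and the thioredoxin system.

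Total counts were 57700492 to 62657358 in the Cys-starved and 54294288 to 61459894 in the unstarved libraries. Over all 9 libraries edgeR put the variation between replicates at a coefficient of 3.53% beyond counting noise, taking each count as an independent fragment. As most low counts were even, that may not hold, and part of the 3.53% may itself be counting noise. Levels are given as CPM, the count scaled by the library's effective total after TMM normalization. CPM is not corrected for gene length, so sums and rankings of CPM across genes below are of reads, not of RNA molecules. The first principal component of the 6 libraries held 81.1% of the variance and separated the groups. All 10 ES cell markers were above 1 CPM, and their summed level was 4370 to 4400 CPM in the unstarved and 4160 to 4210 CPM in the Cys-starved libraries. Of 10 fibroblast feeder markers 4 reached 1 CPM, with a sum of 15.7 to 16.1 CPM against 14.8 to 17.9 CPM, and Postn, Dcn, Lum and S100a4 had no count. Endoderm markers summed to 9.05 to 9.98 CPM and 11.6 to 13.1 CPM (3 called higher), mesoderm markers to 9.02 to 10.3 CPM and 8.52 to 9.41 CPM, and trophoblast markers to 54.7 to 57.2 CPM and 51.2 to 53.8 CPM, in the same order. Neuroectoderm markers summed to 225 to 229 CPM and 272 to 273 CPM (4 called higher and 1 lower), mostly from Tubb3, a tubulin with a mean of 148 CPM in unstarved cells. None of the markers of 2-cell-like cells reached 1 CPM. In such bulk samples fewer cells of a type and less RNA per cell cannot be told apart, and the part of these markers in the results was not tested.

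Cys starvation changed many genes by a little and few by a lot. At a Benjamini-Hochberg adjusted p of 0.05 in edgeR's quasi-likelihood test, which gave every adjusted p below, 7313 of the 20143 genes were called (36.3%), with 3523 higher (17.5%) and 3790 lower (18.8%). For 9350 genes (46.4%) the groups did not overlap. The size of the log2 fold change was under 0.5 in 85.4% of the calls, and it was at least 1 in 241 genes that rose and 55 that fell. Among the 11439 genes whose mean was at least 5 CPM, 2778 rose (24.3%) and 3479 fell (30.4%), the median log2 fold change was -0.02, and 35 rose and 6 fell by at least 1. The gene groups below hold mostly expressed genes, so their counts are best read against the latter percentages. When TMM was replaced by the deposited size factors, 36.8% of the calls were higher (2787 higher and 4786 lower), against 48.2% here, and the median over all genes moved from 0.01 to -0.03. The plot of change against level shows the larger increases at low to middle levels and the larger decreases also among highly expressed genes such as Hsp90aa1 and Slc2a3.

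**Figure D1:**
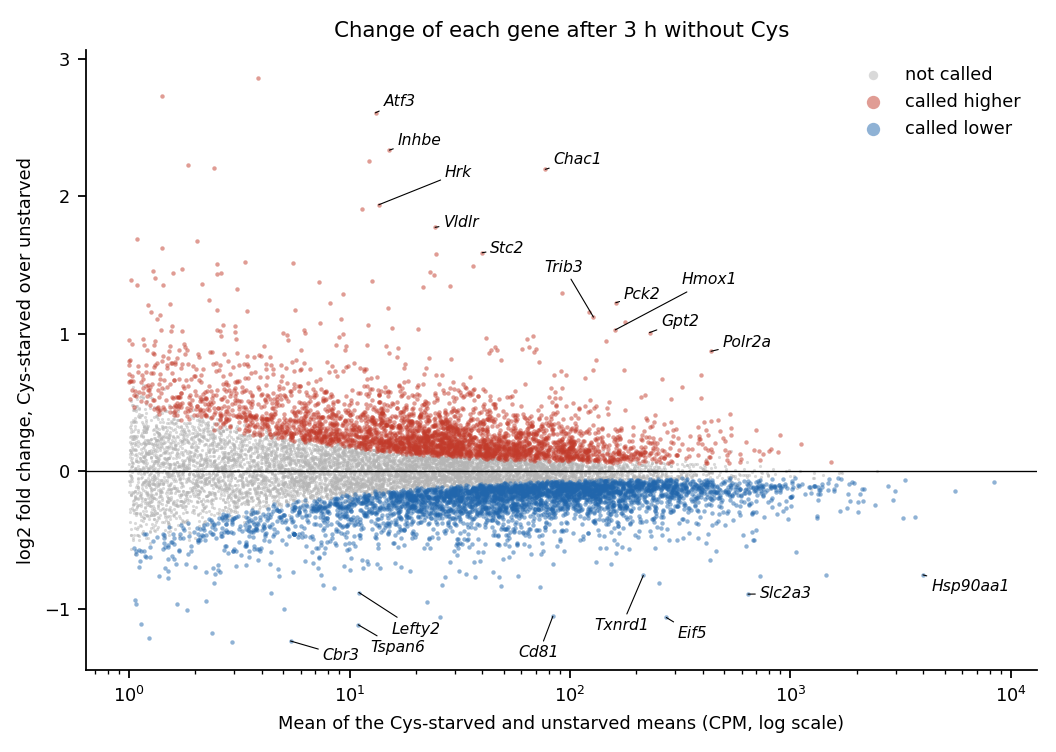
Log2 fold change of each gene, Cys-starved over unstarved, against the mean of the group means in CPM (log scale), for genes with at least 1 CPM; red genes were called higher, blue genes lower, and grey genes were not called. Most coloured genes lie within 0.5 of the line at 0, and Atf3, Inhbe and Chac1 stand above 2.

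Promoters of 5 ISR genes that rose are shown first, chosen because they hold an element bound by C/EBP-ATF dimers, TGATGNAA, which was searched for on both strands of the 300 bases from 250 before to 50 after each RefSeq start (GRCm38.p6). Adm2 and Stc2, which rose more than some of them, held no match. For Atf3 (chr1:191183284-191183583, minus strand), Inhbe (chr10:127351799-127352098, minus strand), Chac1 (chr2:119350992-119351291, plus strand), Trib3 (chr2:152344011-152344310, minus strand) and the cystine antiporter gene Slc7a11 (chr3:50443564-50443863, minus strand) the capitals mark the matches. The window of the thioredoxin reductase gene Txnrd1 (chr10:82858956-82859255, plus strand), which fell, is shown beside them for contrast, with capitals on a match to the NRF2 element TGACNNNGC. Each is written along the gene's own strand.
Atf3: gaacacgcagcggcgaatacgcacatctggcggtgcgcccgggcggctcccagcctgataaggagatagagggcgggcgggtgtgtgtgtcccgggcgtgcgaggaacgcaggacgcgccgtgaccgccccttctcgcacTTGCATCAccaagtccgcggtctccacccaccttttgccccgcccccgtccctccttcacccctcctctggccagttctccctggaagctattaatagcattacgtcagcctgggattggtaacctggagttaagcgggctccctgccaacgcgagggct
Inhbe: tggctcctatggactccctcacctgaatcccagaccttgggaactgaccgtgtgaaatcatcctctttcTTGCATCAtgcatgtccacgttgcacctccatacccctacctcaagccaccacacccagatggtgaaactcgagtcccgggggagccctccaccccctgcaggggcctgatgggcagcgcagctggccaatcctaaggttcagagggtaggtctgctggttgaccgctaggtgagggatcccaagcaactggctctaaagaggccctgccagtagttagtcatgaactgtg
Chac1: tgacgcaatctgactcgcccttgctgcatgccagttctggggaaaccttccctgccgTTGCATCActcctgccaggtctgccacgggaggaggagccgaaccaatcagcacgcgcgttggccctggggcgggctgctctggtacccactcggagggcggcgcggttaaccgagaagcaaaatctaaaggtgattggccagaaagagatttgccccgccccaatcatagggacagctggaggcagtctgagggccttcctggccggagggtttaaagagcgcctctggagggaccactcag
Trib3: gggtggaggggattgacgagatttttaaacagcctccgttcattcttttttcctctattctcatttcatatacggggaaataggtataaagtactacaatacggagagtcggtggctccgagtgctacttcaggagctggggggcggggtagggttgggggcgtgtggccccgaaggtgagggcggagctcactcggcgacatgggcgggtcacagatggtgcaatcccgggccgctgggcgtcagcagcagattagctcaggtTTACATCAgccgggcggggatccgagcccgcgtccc
Slc7a11: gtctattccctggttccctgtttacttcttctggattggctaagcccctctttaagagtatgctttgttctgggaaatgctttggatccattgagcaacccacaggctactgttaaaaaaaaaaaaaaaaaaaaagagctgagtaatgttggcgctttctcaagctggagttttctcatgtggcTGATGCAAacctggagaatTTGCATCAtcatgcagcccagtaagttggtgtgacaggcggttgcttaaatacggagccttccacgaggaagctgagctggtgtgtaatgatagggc
Txnrd1: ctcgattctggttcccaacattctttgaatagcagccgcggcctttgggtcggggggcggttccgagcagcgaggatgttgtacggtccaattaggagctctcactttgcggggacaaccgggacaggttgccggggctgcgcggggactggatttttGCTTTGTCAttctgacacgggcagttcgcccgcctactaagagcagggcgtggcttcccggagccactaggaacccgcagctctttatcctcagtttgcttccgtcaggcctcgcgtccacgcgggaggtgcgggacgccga
The C/EBP-ATF match began 110 bases before the start in Atf3, 181 in Inhbe and 193 in Chac1, while that of Trib3 lay 14 bases after it. Slc7a11 held 2 matches, 66 and 47 bases before the start. The Txnrd1 match began 92 bases before the start, in 1 of 3 windows of that gene. TGATGNAA was found in 3.97% of all 32851 windows of the table, so that a match is a description and not a site.

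Transcription factors and feedback genes of the ISR rose together. Of the 21 regulators tested, 15 rose (71.4%) and 2 fell, with a median log2 fold change of 0.39 against 0.01 over all genes tested. Atf3, a stress-induced transcription factor, was at 3.70, 3.84 and 3.54 CPM in the unstarved and 23.4, 21.7 and 22.6 CPM in the Cys-starved libraries. Its log2 fold change was 2.61 ± 0.064 (SE, adjusted p = 2.3e-18), the largest among genes with at least 5 CPM. Chac1, which cleaves GSH, was at 27.1, 29.3 and 26.4 CPM and then at 125, 127 and 128 CPM, a 4.58-fold rise (2.20 ± 0.035, adjusted p = 2.3e-21). In both genes every Cys-starved library lay far above every unstarved one. Trib3, a pseudokinase that dampens ATF4 activity, rose from 79.0, 81.9 and 80.7 CPM to 174, 176 and 175 CPM (1.12 ± 0.028, adjusted p = 3.1e-18). Nupr1, a small chromatin-associated stress protein, rose by 1.49 and Jdp2, a repressor of the same leucine zipper class as Atf3, by 1.34. Ddit4, an inhibitor of mTORC1, rose by 1.30, and Sesn2, another such inhibitor, by 0.54. Ppp1r15a, the stress-induced subunit that returns eIF2α to its unphosphorylated form, rose by 0.87. Atf4 itself, whose protein is controlled mainly by translation, rose only 1.28-fold, from 349, 359 and 355 CPM to 458, 459 and 446 CPM (0.36 ± 0.021, adjusted p = 7.9e-12). Ddit3 (CHOP), a later factor of the ISR that can promote cell death, moved little, from 14.4, 16.3 and 15.8 CPM to 18.6, 18.2 and 18.2 CPM (0.24 ± 0.048, adjusted p = 0.0003). None of the 4 kinases that start the response was called higher. Eif2ak4 (GCN2) was at 26.8, 28.7 and 28.3 CPM against 28.3, 26.6 and 28.3 CPM and was not called (adjusted p = 0.873), and Eif2ak3 (PERK) was not called either (adjusted p = 0.931). Eif2ak1 (HRI) fell by 0.32 on the log2 scale.

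Secreted factors and receptors of the ISR had the largest median of the 63 gene lists. The lists were chosen with earlier results of these data known, so this rank is only a description. Of 11 secreted factors and receptors tested, 7 rose and 1 fell (Tnfrsf10b, a death receptor, -0.30), with a median of 1.49. That median is the value of Fgf21, a transcript under 1 CPM, and over the 8 members with at least 1 CPM it was 1.28. Inhbe, an inhibin subunit of the TGFβ family, was at 4.30, 4.81 and 5.99 CPM and rose to 26.0, 25.9 and 24.0 CPM (2.34 ± 0.084, adjusted p = 2e-15). Adm2, a peptide hormone related to adrenomedullin, rose from 4.37, 4.50 and 3.80 CPM to 20.5, 20.6 and 19.6 CPM (2.26 ± 0.066, adjusted p = 5e-17). Vldlr, a lipoprotein receptor, reached 38.3, 37.0 and 38.2 CPM from 11.3, 10.8 and 11.1 CPM (1.77 ± 0.052, adjusted p = 6e-17). The groups were well apart in all 3 genes. Stc2, a secreted glycoprotein, rose 3.01-fold and Vegfa, the angiogenic growth factor, 1.96-fold. The stress cytokine Gdf15 rose from 8.50, 8.27 and 8.09 CPM to 15.3, 15.8 and 15.8 CPM, a 1.89-fold change. Fgf21, best known as a liver hormone of fasting, rose as well (adjusted p = 0.0014).

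Other large increases lay outside these lists. Hrk, a BH3-only activator of apoptosis, rose from 5.23, 5.87 and 5.75 CPM to 21.5, 21.1 and 22.0 CPM (1.94 ± 0.061, adjusted p = 1.7e-16), while most other BCL2 family genes moved little, with 5 of 17 higher and 7 lower and a median of 0.03, which turned to -0.03 without Cys-starved replicate 1, -0.04 without unstarved replicate 1 and -0.0078 with the deposited size factors. Tsc22d3, the glucocorticoid-induced leucine zipper protein, rose 3.76-fold to 17.5, 18.9 and 17.3 CPM. Otub2, a deubiquitinase, rose 2.73-fold and Lexm 2.86-fold. Mef2b rose 3.00-fold, but it shares its strand and position with Borcs8, so that their reads cannot be told apart.

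Genes that charge tRNA, take up amino acids and make serine and one-carbon units rose in part. Of 23 cytosolic aminoacyl-tRNA synthetases and their scaffold genes, 12 rose (52.2%) and 6 fell, with a median of 0.06. The largest increase among them was that of Cars, which charges the tRNA for Cys, from 194, 199 and 190 CPM to 250, 254 and 251 CPM (0.37 ± 0.023, adjusted p = 2.6e-11). Gars and Lars followed with 0.26 and 0.24, whereas the scaffold gene Aimp2 and the Gln synthetase gene Qars both fell by 0.27 on the log2 scale. Of 17 mitochondrial synthetases, 3 rose (1 without unstarved replicate 1) and 6 fell. Of 30 amino acid transporters, 13 rose (43.3%) and 6 fell (3 without Cys-starved replicate 3), with a median of 0.09. Slc6a9, a Gly transporter, rose from 8.72, 9.45 and 9.13 CPM to 21.0, 20.6 and 20.6 CPM (1.19 ± 0.061, adjusted p = 8.8e-13). Slc1a4, which carries Ser, Ala and Cys, rose from 41.5, 43.9 and 44.3 CPM to 85.8, 83.6 and 82.8 CPM (0.96 ± 0.033, adjusted p = 7e-16). Slc7a1, the main carrier of cationic amino acids, rose 1.59-fold to 320, 315 and 325 CPM. Among the transporter genes that fell were Slc6a6 for taurine (-0.28) and Slc38a4 for small neutral amino acids (-0.22).

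Genes of Ser synthesis and one-carbon units were split, with several of the larger increases in mitochondrial enzymes. Of 26 such genes, 10 rose (38.5%) and 6 fell, with a median of 0.01. Aldh1l2, a mitochondrial formyltetrahydrofolate dehydrogenase, rose 2.61-fold to 19.5, 16.9 and 18.6 CPM. Mthfd2 rose from 296, 307 and 300 CPM to 493, 482 and 491 CPM (0.70 ± 0.023, adjusted p = 3.5e-16), and Shmt2, which splits Ser in mitochondria, from 311, 325 and 325 CPM to 468, 460 and 462 CPM (0.53 ± 0.022, adjusted p = 2.1e-14). The cytosolic Shmt1 fell by 0.10 and Tdh, which degrades Thr in mouse ES cells, by 0.25 on the log2 scale. Of the Ser synthesis genes Psph rose by 0.58, Phgdh by 0.34 and Psat1 by 0.15. Among 22 genes of nonessential amino acid synthesis 7 rose and 7 fell, so the group as a whole showed no direction. Pck2, mitochondrial PEP carboxykinase, rose from 94.7, 96.9 and 97.9 CPM to 226, 225 and 226 CPM (1.23 ± 0.025, adjusted p = 1.6e-19), and Gpt2, mitochondrial alanine aminotransferase, from 152, 156 and 150 CPM to 306, 304 and 310 CPM (1.01 ± 0.023, adjusted p = 7.5e-19). Asns, asparagine synthetase, rose by 0.41, whereas Glul, glutamine synthetase, fell by 0.52 on the log2 scale.

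Of the routes to Cys itself, import and the last step of transsulfuration rose, and the first step did not change by the test. Slc7a11, the cystine carrier xCT, was at 28.1, 32.2 and 33.2 CPM in the unstarved and 45.4, 45.8 and 45.6 CPM in the Cys-starved libraries (0.55 ± 0.058, adjusted p = 9.8e-08). Its partner chain Slc3a2 rose 1.18-fold to 424, 418 and 408 CPM. Cth, which releases Cys from cystathionine, rose from 102, 99.8 and 98.2 CPM to 199, 191 and 188 CPM (0.94 ± 0.027, adjusted p = 3.1e-17), a 1.93-fold change with no overlap of the groups. Cbs, which makes cystathionine, was at 24.2, 25.6 and 24.8 CPM against 26.3, 25.3 and 24.2 CPM, values that overlap (adjusted p = 0.74). Mat2a, which makes S-adenosylmethionine, fell by 0.19 and Ahcy, which recycles its product, by 0.20 on the log2 scale. Over the 18 genes of the Met cycle and transsulfuration 3 rose and 5 fell, with a median of 0.01. Of 22 genes that break down Cys or use it for sulfide and coenzyme A, 2 rose and 4 fell. However, in DESeq2, with the deposited size factors and without Cys-starved replicate 1, Cys-starved replicate 2 or unstarved replicate 2 none was called higher. The number called lower ranged from 2 to 5 when 1 library was left out. Cdo1, the dioxygenase that oxidizes Cys, was at 5.03, 4.50 and 5.25 CPM against 4.79, 4.22 and 4.44 CPM and was not called (adjusted p = 0.29).

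Genes of the first step of GSH synthesis fell, and Chac1, whose product cleaves GSH, rose. Gclc, the catalytic subunit of the rate-limiting ligase, fell from 70.1, 69.9 and 71.4 CPM to 51.2, 51.0 and 53.0 CPM (-0.45 ± 0.031, adjusted p = 1.8e-10). Gclm, its modifier subunit, fell from 102, 106 and 103 CPM to 87.3, 89.4 and 86.9 CPM (-0.24 ± 0.032, adjusted p = 2.9e-06). Both subunits thus fell in every library while Chac1 rose 4.58-fold. Gss, which adds the last residue of GSH, overlapped between the groups (adjusted p = 0.929), and Gsr, which reduces oxidized GSH, fell only by 0.09 on the log2 scale (adjusted p = 0.00716). Of all 36 GSH genes tested 5 rose and 10 fell, with a median of -0.10 (-0.06 without unstarved replicate 2 and likewise without unstarved replicate 3). Among the others Slc25a40, a mitochondrial carrier linked to GSH import, rose by 0.41 and the export pump gene Abcc5 fell by 0.45 on the log2 scale. The plot of single libraries by role shows the small scatter of the replicates beside these shifts.

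**Figure D2:**
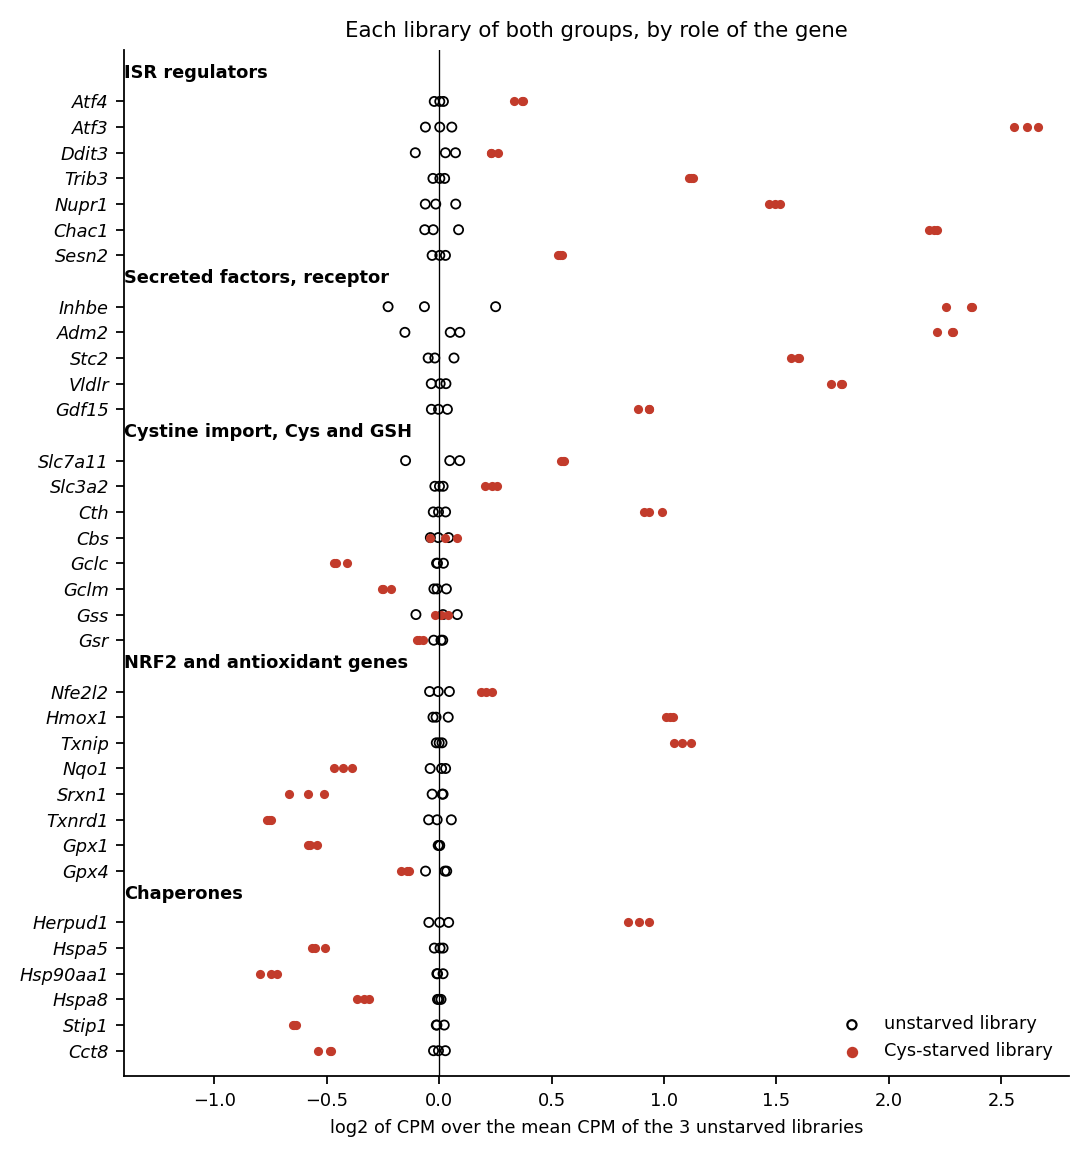
Level of each gene in each library as log2 of its CPM over the mean CPM of the 3 unstarved libraries; open circles are unstarved and filled circles Cys-starved libraries, grouped by role. The Cys-starved points of Atf3, Inhbe, Adm2 and Chac1 lie above 2, those of Cbs and Gss overlap the unstarved points, and those of Txnrd1 and Hsp90aa1 lie near -0.75.

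Most NRF2 targets fell, with Hmox1 and Slc7a11 as the main exceptions. Of 38 genes of the NRF2 system tested, 21 fell (55.3%) and 5 rose, with a median of -0.14. Nfe2l2 itself rose slightly, from 68.5, 70.9 and 66.7 CPM to 79.4, 78.1 and 80.9 CPM (0.21 ± 0.031, adjusted p = 1.3e-05), and its inhibitor gene Keap1 was not called (adjusted p = 0.592). Hmox1, heme oxygenase, which ATF4 and other factors also induce, rose from 104, 109 and 105 CPM to 213, 216 and 218 CPM (1.03 ± 0.028, adjusted p = 1.4e-17). Txnrd1, cytosolic thioredoxin reductase, fell from 262, 281 and 269 CPM to 161, 160 and 159 CPM (-0.76 ± 0.025, adjusted p = 4.9e-16). These changes go in opposite directions, each with the groups well apart. Nqo1, a quinone reductase, fell from 31.8, 30.7 and 32.2 CPM to 23.5, 24.1 and 22.8 CPM (-0.43 ± 0.043, adjusted p = 5.5e-08). Srxn1, which repairs overoxidized peroxiredoxins, fell from 36.1, 36.2 and 35.0 CPM to 25.1, 23.9 and 22.5 CPM (-0.58 ± 0.05, adjusted p = 3.8e-09). Cbr3, a carbonyl reductase, had the largest decrease of any gene with at least 5 CPM, from 8.12, 7.08 and 7.55 CPM to 3.38, 3.15 and 3.12 CPM (-1.24 ± 0.102, adjusted p = 2.3e-09).

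Most genes of the thioredoxin and peroxidase systems fell too. Of 35 thioredoxins, peroxiredoxins, glutaredoxins and related enzymes 20 fell (57.1%) and 5 rose, with a median of -0.17. Gpx1, a peroxidase that uses GSH, fell from 222, 222 and 221 CPM to 148, 152 and 149 CPM (-0.57 ± 0.023, adjusted p = 1.1e-14). Prdx1, an abundant peroxiredoxin, fell 1.20-fold from a mean of 900 CPM. Txnip, which binds and inhibits thioredoxin, went the other way and rose from 113, 115 and 114 CPM to 248, 241 and 235 CPM (1.08 ± 0.025, adjusted p = 7.5e-19). Its relatives Arrdc3 and Arrdc4 rose by 0.67 and 0.32, and these 3 were the called genes among 7 of the arrestin-domain group. Of 31 genes for selenoproteins, in which selenocysteine takes the place of Cys, and for their machinery, 17 fell (54.8%) and 7 rose, with a median of -0.14. Besides Txnrd1 and Gpx1 the decreases were largest in Gpx2 (-0.81), Selenow (-0.61) and Selenoh (-0.58). Gpx2 was a low transcript, at 2.78, 3.28 and 3.23 CPM in the unstarved and 1.49, 1.48 and 2.31 CPM in the Cys-starved libraries. Its log2 fold change ranged from -1.05 to -0.70 when 1 library was left out.

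Genes tied to lipid peroxidation and ferroptosis, the iron-dependent form of cell death that follows loss of GSH, showed small shifts. Gpx4, which removes lipid peroxides, fell from 173, 174 and 163 CPM to 151, 155 and 154 CPM (-0.14 ± 0.029, adjusted p = 0.00036). Acsl4, which supplies the polyunsaturated lipids that peroxidize, overlapped between the groups at 56.4, 59.3 and 56.1 CPM against 58.9, 55.6 and 54.7 CPM (adjusted p = 0.656), though it was called lower once the trends with GC content and length were removed (-0.12, adjusted p = 0.011). Of 39 such genes 6 rose and 14 fell, with a median of -0.07 (-0.04 without unstarved replicate 2). Ptgs2, often used as a marker of ferroptosis, rose from 0.529, 0.695 and 1.00 CPM to 2.10, 1.50 and 1.51 CPM (1.21 ± 0.195, adjusted p = 3.2e-05), so that it stayed a low transcript. Gch1, the first enzyme of tetrahydrobiopterin synthesis, rose from 1.65, 1.79 and 1.85 CPM to 4.57, 4.11 and 4.61 CPM (1.33 ± 0.114, adjusted p = 4.9e-09). Both are rises from under 2 CPM.

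Some iron genes fell, among them those of transferrin uptake and of ferritin. The transferrin receptor gene Tfrc fell from 392, 401 and 376 CPM to 349, 347 and 335 CPM (-0.18 ± 0.028, adjusted p = 1.9e-05). The ferritin genes Fth1 and Ftl1 fell by 0.15 and 0.13 on the log2 scale. Of 29 genes of iron handling 13 fell (44.8%), 3 rose and 13 were not called, with a median of -0.09 (-0.14 without unstarved replicate 1). Hmox1, which frees iron from heme, was among those that rose. Of 31 genes of iron-sulfur cluster assembly 11 fell (35.5%, against 30.4% of expressed genes) and 4 rose, with a median of -0.03. Without Cys-starved replicate 1 2 were called higher, and without unstarved replicate 3 the median was -0.05. The cytosolic assembly genes Ciao1 and Ciapin1 both fell by 0.42 on the log2 scale, and Narfl of the same pathway rose by 0.35.

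Chaperone genes formed another group that fell. Of 30 cytosolic chaperones and heat shock genes 20 fell (66.7%) and 1 rose (2 without Cys-starved replicate 1), with a median of -0.14, and the gene that rose was Hsf1, the heat shock factor itself (0.31). Hsp90aa1, the inducible form of HSP90, dropped from 5070, 4974 and 4985 CPM to 2887, 3043 and 2979 CPM (-0.75 ± 0.016, adjusted p = 2.1e-19). Its cochaperone Stip1 fell from 523, 536 and 524 CPM to 339, 337 and 336 CPM (-0.65 ± 0.02, adjusted p = 1.2e-16). The constitutive Hsp90ab1 fell only 1.11-fold, and the 2 nearly identical HSP70 genes Hspa1a and Hspa1b, whose reads the counting could split, fell by 0.63 and 0.67 on the log2 scale. All 8 subunits of TRiC, the chaperonin that folds actin and tubulin, fell, by 0.15 in Cct2 to 0.50 in Cct8. Cct8 was at 792, 809 and 780 CPM and then at 567, 569 and 547 CPM. The mitochondrial chaperonin gene Hspd1 fell by 0.34 and its partner Hspe1 by 0.27, and of the 19 mitochondrial chaperones and proteases 6 fell (31.6%) and 4 rose (21.1%), the largest increase being that of Clpx (0.27).

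Genes of folding and disulfide formation in the ER fell as well. Of 44 such genes 26 fell (59.1%) and 7 rose, with a median of -0.15. Hspa5 (BiP), the main ER chaperone, fell from 733, 746 and 753 CPM to 507, 523 and 502 CPM (-0.54 ± 0.021, adjusted p = 5.4e-15). Pdia6, a disulfide isomerase, fell from 354, 362 and 360 CPM to 259, 254 and 246 CPM (-0.50 ± 0.024, adjusted p = 3.4e-13). Creld2 and Txndc5, which also act on disulfides, fell by 0.63 and 0.54 on the log2 scale. Of the genes that rose, Herpud1, an ERAD scaffold that ATF4 can induce, rose most, from 41.3, 42.7 and 43.9 CPM to 79.0, 81.3 and 76.3 CPM (0.89 ± 0.033, adjusted p = 4.3e-15). Atf6, a sensor of ER stress, rose by 0.34, and Ero1l, the oxidase that passes disulfides to the isomerases, by 0.29.

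Several of the largest decreases were in genes of translation initiation, transcription and the cell surface. Eif5, which triggers GTP hydrolysis on eIF2 at the start codon, fell from 380, 362 and 369 CPM to 175, 179 and 177 CPM (-1.06 ± 0.023, adjusted p = 3.9e-19). Eif2s2, the β subunit of eIF2, fell by 0.58 and Eif3d by 0.53 on the log2 scale. Of 42 initiation factors 21 fell (50.0%) and 7 rose, with a median of -0.08, and the largest increase was that of the translational repressor Eif4ebp1 (0.36). Gtf2h2, a subunit of the general factor TFIIH, fell from 37.2, 33.4 and 34.2 CPM to 18.1, 16.0 and 16.2 CPM (-1.06 ± 0.053, adjusted p = 7.1e-13). The other 9 subunits of TFIIH lay between -0.09 and 0.18, so that the complex did not move together. Nsmce2, a SUMO ligase of the SMC5/6 complex, fell 1.94-fold and Zc3h12a, an RNase that degrades inflammatory mRNAs, 2.01-fold.

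Tetraspanins, membrane proteins with many conserved Cys residues that organize surface and vesicle proteins, fell in most members. Of 24 tested 15 fell (62.5%), 1 rose and 8 were not called, with the lowest median of the 63 lists, -0.43. That rank, too, is among lists chosen with earlier results of these data known. Tspan6 fell from 15.4, 14.6 and 15.1 CPM to 6.94, 7.31 and 6.47 CPM (-1.12 ± 0.062, adjusted p = 3.6e-12). Cd81 fell from 108, 115 and 115 CPM to 56.2, 54.5 and 51.9 CPM (-1.06 ± 0.034, adjusted p = 2.7e-16), and it overlaps R74862 on the opposite strand. The exosome markers Cd63 and Cd9 fell by 0.77 and 0.50 on the log2 scale, Cd151 by 0.72. The only member called higher was Tspan32, at 0.51 and a mean of 1.73 CPM in unstarved cells, and its call was lost without unstarved replicate 2 (adjusted p = 0.061) and with the libraries thinned to the smallest total (adjusted p = 0.05). Esam, an adhesion molecule outside the family, fell 1.81-fold to 5.70, 5.72 and 6.83 CPM.

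Genes of pluripotency mostly fell, by small amounts. Of 27 naive pluripotency genes 18 fell (66.7%) and 7 rose, with a median of -0.16. Pou5f1 was at 846, 858 and 843 CPM and then at 779, 779 and 782 CPM (-0.12 ± 0.017, adjusted p = 5.4e-06), and Nanog at 290, 280 and 278 CPM and then at 263, 266 and 253 CPM (-0.12 ± 0.026, adjusted p = 0.00133). The groups did not overlap for either factor, but both changes were under 1.10-fold. Gbx2, a homeobox gene downstream of LIF, fell from 53.5, 57.9 and 56.3 CPM to 33.5, 34.8 and 32.7 CPM (-0.73 ± 0.04, adjusted p = 2.7e-12). Esrrb and Nr0b1, by contrast, rose by 0.26 and 0.32. Of 23 genes of the formative and primed states 14 fell (60.9%) and none rose, with a median of -0.29, though 1 was called higher without Cys-starved replicate 3. Foxd3 fell by 0.77, Tcf15 by 0.53 and the Nodal antagonist Lefty2 by 0.88 on the log2 scale. Feedback genes of FGF/ERK signalling showed 11 of 22 lower and 2 higher, with Spry1 at -0.54 and Fgf4, the ligand itself, at -0.38. Of 33 immediate early genes 11 rose and 10 fell, led by Jun (0.92) and Klf6 (0.73) upwards and Zfp36l2 (-0.54) downwards.

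Most genes of several large housekeeping groups fell by small amounts, though mitochondrial ribosomal proteins did not stand out, with 27 of 76 lower (35.5%) and 14 higher (18.4%, or 9 of 76 with the deposited size factors). Of 82 cytosolic ribosomal protein genes 74 fell (90.2%) and none rose, with a median of -0.13. Of 85 nuclear genes for subunits of oxidative phosphorylation 58 fell (68.2%) and none rose, again with a median of -0.13, though 4 were called higher once the trends with GC content and length were removed and 2 without Cys-starved replicate 3. The 13 protein genes of the mitochondrial genome had the same median, but only mt-Nd1 and mt-Nd3 were called, both lower. Without unstarved replicate 1 their median turned to 0.07 and the call of mt-Nd1 was lost (adjusted p = 0.17), as it was in DESeq2 (adjusted p = 0.13). With unstarved replicate 2 left out, 10 of the 13 were called lower. The rRNA entry CT010467.1, also among the largest losses in CPM, was highest in unstarved replicate 1. It was at 1807, 1189 and 802 CPM in the unstarved and 743, 777 and 1013 CPM in the Cys-starved libraries, values that overlap. A link to the mitochondrial genes was not tested. Of 37 proteasome genes 24 fell (64.9%) and 3 rose, with a median of -0.11. Glycolysis fell somewhat more, 18 of 26 genes lower (69.2%) and 3 higher, with a median of -0.21. The glucose carrier gene Slc2a3 fell from 828, 844 and 833 CPM to 451, 450 and 445 CPM (-0.90 ± 0.018, adjusted p = 1.6e-19), and the lactate exporter gene Slc16a3 from 62.0, 59.3 and 60.5 CPM to 41.2, 37.0 and 38.7 CPM (-0.64 ± 0.041, adjusted p = 4.1e-11). Of 37 genes of sterol and fatty acid synthesis 20 fell (54.1%) and 4 rose. Of 30 genes of the p53 pathway 14 fell (46.7%) and 6 rose, with Gadd45a at 0.80 and Cdkn1a (p21) at -0.24. The 380 zinc finger genes named Zfp moved the other way, with 203 higher (53.4%), 37 lower and a median of 0.18. The plot of gene lists sets these counts beside those over all genes.

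**Figure D3:**
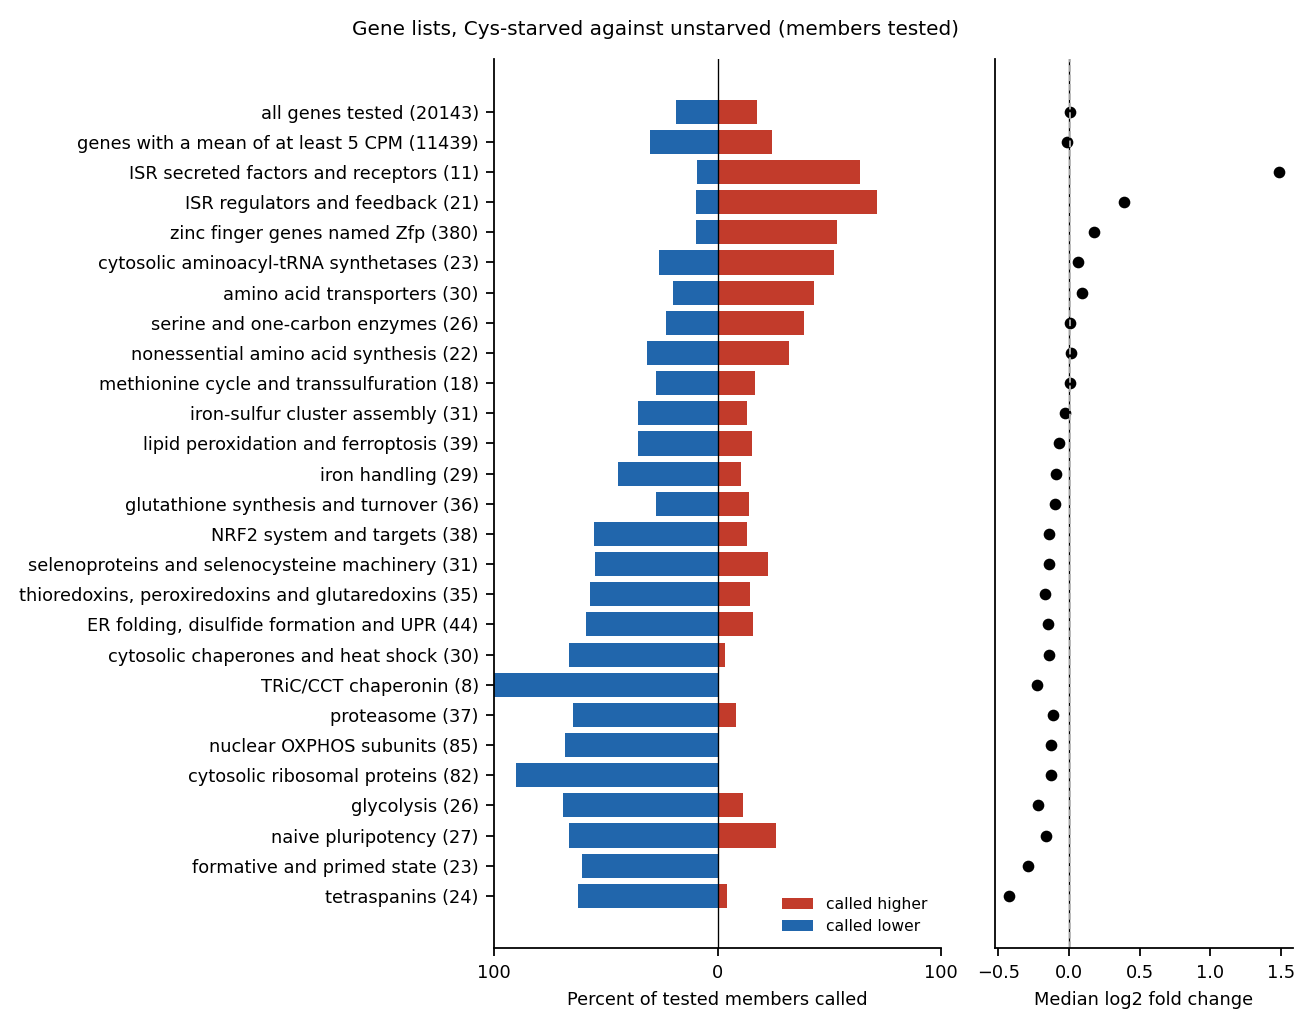
Left, percent of the tested members of each list that were called lower (blue, to the left) or higher (red, to the right); right, median log2 fold change of the list, with a line at 0; the number of members tested is in brackets and the top rows give all genes. ISR lists and Zfp genes lie to the right, with medians of 1.49, 0.39 and 0.18, and tetraspanins have the lowest median, -0.43.

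By difference in CPM, which is not corrected for gene length, the changes were led by other genes. Polr2a, the largest subunit of RNA polymerase II, gained most, from 309, 319 and 297 CPM to 549, 539 and 603 CPM (0.87 ± 0.043, adjusted p = 6.3e-13). The next gains were in ISR targets, 187 CPM in Mthfd2, 165 CPM in Gars, 155 CPM in Aars, 154 CPM in Gpt2 and 152 CPM in Asns. Hsp90aa1 fell by 2040 CPM, the most of all, from a mean of 5010 CPM, followed by Hspa8, the constitutive HSP70, from 4064, 4108 and 4082 CPM to 3242, 3291 and 3174 CPM. The processed pseudogenes Gm12346 and Gm15459 fell by 740 and 753 CPM and have the same fold change as Hsp90aa1 and Hspa8, -0.75 and -0.34, so that reads of the parent genes counted there cannot be told apart. Eef1a1, an elongation factor with the highest CPM of these, fell by 0.08 on the log2 scale and by 460 CPM.

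The C/EBP-ATF element was found most often in the genes that rose most. Of the 11439 genes with at least 5 CPM 7903 had a promoter window in the RefSeq table, and 2.57% of them held TGATGNAA. The share was 3.92% (84 of 2142) among genes called higher, 2.25% among those not called and 1.76% (39 of 2211) among those called lower. Among genes that rose by at least 1 on the log2 scale it was 35.5% (11 of 31), among those that rose by 0.5 to 1 it was 5.17%, and among those that fell by at least 0.5 it was 3.23% (3 of 93). Of the 12 largest increases the windows of Atf3, Inhbe, Chac1, Hrk, Vldlr and Nupr1 held it, and of the 12 largest decreases 6 had a window and none held it. Slc7a11, Slc1a4, Herpud1, Trib3 and Pck2 also held it. The NRF2 element TGACNNNGC was found in 12.4% of all windows, in 16.8% of these genes, in 16.0% of those called higher, in 18.3% of those called lower and in 22.6% (7 of 31) of those that rose by at least 1. The E-box CACGTG was in 7.15% of all windows and in 11.7% and 13.9% of genes called higher and lower, and CCAAT in 37.4% of all windows and in 47.0% and 42.7%. Among the 31 genes that rose by at least 1 the E-box was in 9.68% and CCAAT in 54.8%, against 12.7% and 44.1% of the 7903 genes. Of the 1328 matches to TGATGNAA none shared bases with TGACNNNGC, 3 with CACGTG and 6 with CCAAT. With genes from 1 CPM included, TGATGNAA was in 25.9% (14 of 54) of those that rose by at least 1. These shares are descriptions, and a missing match says only that the letters are not in this window.

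**Figure D4:**
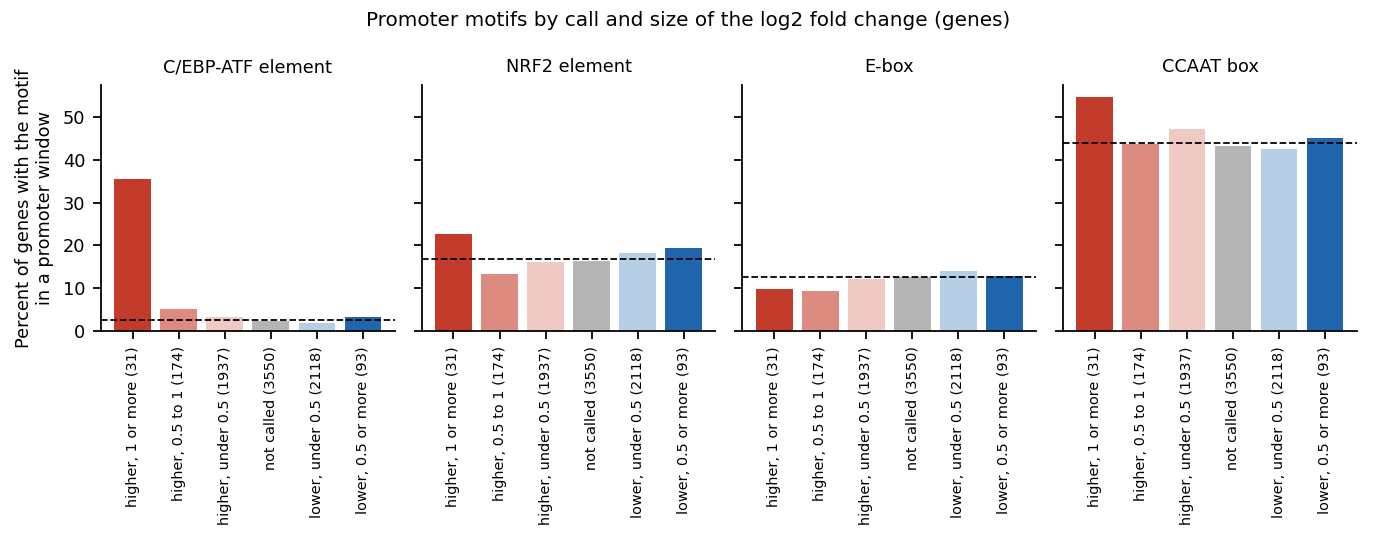
Percent of genes whose promoter window holds each of 4 motifs, for genes at 5 CPM or more on average, by call and size of the log2 fold change (number of genes in brackets); the dashed line is the share over all 7903 genes with a window. The C/EBP-ATF element in genes that rose by at least 1 stands furthest above its line, at 35.5% against 2.57%.

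The genes called also differed in length and coding content. Median transcript length was 3701 bases in genes called higher, 3141 over all genes with at least 5 CPM and 2601 in genes called lower, and 95.5%, 85.7% and 79.1% were protein-coding. When trends over GC content and length were taken out of each library, 7077 genes were called, 3145 higher and 3932 lower. Cys codons made up a median of 1.85% of the coding sequence over all genes, 1.92% in genes called higher and 1.90% in genes called lower. The share was 2.68% in genes that rose by at least 1 and 2.95% in those that fell by at least 0.5, so that it was raised at both ends. Of the 9601 protein-coding genes with at least 5 CPM and 100 codons, 3.49% were called with a size of at least 0.5. In their decile richest in Cys codons (3.86% or more) the share was 9.58%. That decile held 232 Zfp-named genes among 960. With Zfp-named genes left out and the deciles formed anew, the richest held 930 genes (3.57% or more). Of these 9.35% were called with that size, against 3.36% of all genes left. The median of this new decile was -0.01, against 0.05 in the one that held Zfp-named genes.

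Thr starvation was the only other starvation among the 9 libraries. Against it, the Cys response differed directly in 12488 genes (62.0%), 6365 higher in Cys-starved cells (31.6%) and 6123 lower (30.4%). Both starvations were compared with the same unstarved libraries, so the levels are given side by side. Pck2 was at 80.7, 80.3 and 79.3 CPM with Thr starvation, below the unstarved level and far below the 226, 225 and 226 CPM with Cys starvation (1.49 ± 0.025, adjusted p = 5.6e-22). Inhbe reached only 10.5, 9.04 and 10.2 CPM with Thr (1.35 ± 0.076 for Cys over Thr, adjusted p = 5.5e-13), and Slc7a11 was at 25.6, 24.9 and 29.8 CPM (0.76 ± 0.059, adjusted p = 1.2e-10). These 3 ISR genes were thus highest without Cys, but of the 21 ISR regulators 12 were lower with Cys than with Thr and 7 higher, with a median difference of -0.15. Of the 11 secreted factors and receptors 7 were higher and 2 lower with Cys, with a median difference of 0.46, and Chac1 was at 96.6, 92.9 and 95.8 CPM with Thr (0.41 ± 0.031 for Cys over Thr, adjusted p = 9.2e-11). Atf3 was at 32.1, 29.3 and 30.9 CPM with Thr (-0.45 ± 0.049 for Cys over Thr, adjusted p = 3.2e-08), and Nupr1 was also lower with Cys (-0.58 ± 0.034). Ddit3 was at 85.0, 87.4 and 83.0 CPM with Thr against 18.6, 18.2 and 18.2 CPM with Cys (-2.21 ± 0.042, adjusted p = 3.8e-21), and Gdf15 (-1.32 ± 0.044) and Sesn2 (-0.78 ± 0.022) were lower with Cys as well. Trib3 and Asns did not differ by the test between the starvations (0.05 ± 0.027 and -0.03 ± 0.022, adjusted p = 0.154 and 0.18). With the trends with GC content and length removed, Trib3 was lower with Cys (-0.20, adjusted p = 1.2e-07), while it was called higher without Thr-starved replicate 3 (0.08, adjusted p = 0.019). Asns was called lower with the deposited size factors (-0.08, adjusted p = 0.0045).

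Some decreases were larger with Cys than with Thr starvation by the direct test. Eif5 was at 350, 355 and 360 CPM with Thr, close to the unstarved 380, 362 and 369 CPM, against 175, 179 and 177 CPM with Cys (-1.01 ± 0.023, adjusted p = 9.2e-20). Hsp90aa1 was at 4607, 4625 and 4750 CPM with Thr (-0.65 ± 0.016, adjusted p = 2.3e-19), but of the 30 cytosolic chaperones 14 were higher and 11 lower with Cys than with Thr, and Hspa8 (0.93), Hspa5 (1.05) and Hspd1 (1.17 for Cys over Thr) were higher with Cys. Tspan6, which fell with Cys, was at 20.3, 21.2 and 21.5 CPM with Thr (-1.60 ± 0.06, adjusted p = 3.8e-16), but of the 24 tetraspanins 6 were higher and 9 lower with Cys than with Thr, with a median difference of 0.02. Cd81 was at 57.1, 57.4 and 59.2 CPM with Thr, near its level without Cys (-0.10 ± 0.035, adjusted p = 0.02), and this difference was lost without Cys-starved replicate 3 (adjusted p = 0.12) or Thr-starved replicate 3 (adjusted p = 0.085). Selenoh and Selenow likewise were higher with Thr, with a difference of -1.02 and -1.17 for Cys over Thr. Other decreases were larger with Thr. Srxn1 was at 6.63, 7.84 and 7.33 CPM with Thr (1.71 ± 0.06, adjusted p = 1.2e-16), Slc16a3 at 9.92, 9.79 and 10.5 CPM (1.95 ± 0.049, adjusted p = 3.9e-19) and Gbx2 at 15.5, 16.3 and 16.2 CPM (1.07 ± 0.045, adjusted p = 2.3e-15). Among lists, 24 of 38 NRF2 genes were higher and 8 lower with Cys than with Thr, and 22 of 30 p53 genes were lower and 5 higher.

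**Figure D5:**
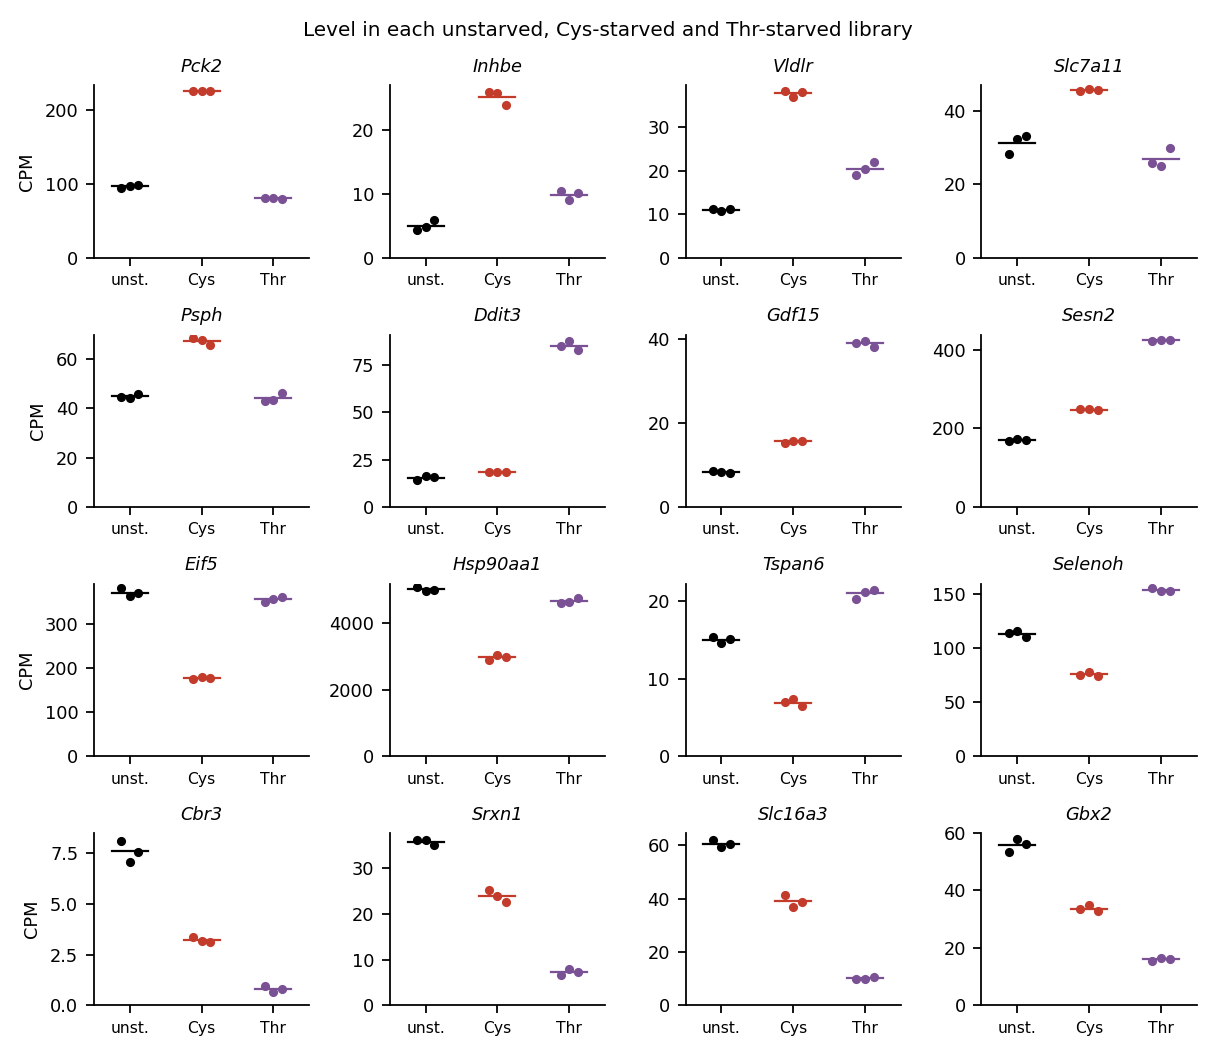
CPM of 16 genes in each of the 3 unstarved (black), Cys-starved (red) and Thr-starved (purple) libraries; lines are group means and every axis starts at 0. Pck2 is highest without Cys, Ddit3 is highest without Thr, and Eif5 is lowest without Cys.

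Several genes above overlap another gene, and the strand setting of the counting is not given in the sources used here, so that reads of the neighbours cannot be told apart. Among those with a neighbour other than small RNA, predicted or antisense genes, Ddit3 lies over Mars and another entry of its own name, Psph over Cct6a, Shmt1 over Smcr8, Shmt2 over Ndufa4l2, Aldh1l2 over D10Wsu102e, Cct8 over Usp16, Pdia6 over Atp6v1c2, Gss over Acss2, Glul over Teddm2, Gpx2 over Fntb, Ppp1r15a over Tulp2, Aars over Exosc6, Txnrd1 over Eid3 and Slc6a9 over Ccdc24 and B4galt2. The same holds for Ciapin1 and Coq9, Narfl and Haghl, Txndc5 and Bmp6, and Eif2s2 and the agouti gene. Of the genes named as lower, Eif2ak1 and Aimp2 overlap each other, and so do Hspd1 and Hspe1.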

How the data were processed

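Polyadenylated RNA of E14 cells was made into directional libraries, 3 for each group. Per the labels and the study's methods, the authors aligned reads with STAR 2.7.4a to GRCm38 and counted them per gene with HTSeq, and the deposited raw counts were used here. How HTSeq treated strand and overlapping genes is not given in the sources used here. Of the counts from 1 to 20, 66.8% to 68.17% were even in each of the 6 Cys-starved and unstarved libraries, so counts may not stand for independent fragments, and counting noise may be understated. A deposited signal table holds these counts divided by 1 size factor per library, computed by the authors with DESeq2, and served only for an alternative scaling. Groups were taken from sample titles, and 0 columns had no sample.

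Genes with at least 1 count were fitted over all 9 libraries with edgeR 4.0.16 (R 4.3.3) using TMM factors, glmQLFit and glmQLFTest, without covariates, and called at a Benjamini-Hochberg adjusted p of at most 0.05. The procedure was tested on simulated data. These had independent counts and few changed genes, so they cannot give the error rate for the counts used here. The members and gene lists were chosen with earlier results of these data known. Genes were named if called, with at least 5 CPM and no overlap of the groups, and among the 12 largest increases or decreases; if among the 8 largest gains or losses in CPM; if among the 4 largest called changes of a list in either direction with at least 1 CPM; or if on a list of core Cys, GSH, iron, ISR and pluripotency genes. Ppp1r15a, Eif2ak3, Gdf15, Fgf21, Shmt1, Prdx1, Cct2 and Cd9 lie outside this rule and were chosen after their values were seen. Symbols, lengths and overlaps came from GENCODE M21, and promoter windows from the RefSeq table (GRCm38.p6).

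Alternatives were DESeq2 1.42.0, RLE factors, the deposited size factors, other count filters, only the groups compared, a replicate block, removal of GC and length trends, thinning to the smallest total, a further fold requirement and leaving out each library. Thinning of counts to 1 in 2, leaving out Zfp-named genes and list medians over members with at least 1 CPM were added after seeing the data.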

Additional observations from a re-analysis of the deposited data

How the results depend on the processing

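The number of genes called ranged from 6402 (counts thinned to 1 in 2) to 7573 (deposited size factors) over the alternative settings, with 6951 in DESeq2, 7077 with the trends with GC content and length removed and 6520 to 7475 when 1 library was left out. Same-numbered replicates did not deviate together (correlations of -0.06, -0.05 and -0.08), and a replicate block gave 7063 calls. A further requirement of at least 1 on the log2 scale left 296 calls, and 2303 against Thr starvation. In that comparison 12488 calls became 11788 to 12540 when 1 library was left out and 12334 with the block. The deposited size factors shifted all 43 list medians down by about the same step (-0.04), past the replicate spread in 26 besides 5 that turned direction, and removal of the GC and length trends shifted them by -0.05 to 0.04 (14 past the spread and 3 turned). The values that turned with GC and length trends removed were all list medians or genes not called with the main settings. They were the medians of Ser and one-carbon enzymes (-0.0157), nonessential amino acid synthesis (-0.0023) and the Met cycle (-0.0065), and Cbs (-0.0073) and Gss (-0.016). Against Thr they were Asns (0.0243) and Trib3 (-0.20), which was then called lower with Cys (adjusted p = 1.2e-07). With the deposited size factors they were the medians of the same 3 lists (-0.0361, -0.0244 and -0.0324), of TFIIH (-0.0020) and the BCL2 family (-0.0078), and Cbs (-0.0188) and Gss (-0.0337). Thinned to the smallest total, Cbs was at -0.0017. With 1 library left out the ranges that crossed 0 were -0.0046 to 0.0341 for Ser and one-carbon enzymes, -0.0231 to 0.0307 for the Met cycle, -0.044 to 0.0848 for immediate early genes, -0.0388 to 0.0542 for the BCL2 family, -0.35 to 0.0656 for mitochondrially encoded genes, -0.0066 to 0.0515 for Cbs, -0.0459 to 0.0182 for Eif2ak4, -0.0269 to 0.0284 for Eif2ak3, -0.0405 to 0.0468 for Gss and -0.0556 to 0.0024 for Acsl4. The decile richest in Cys codons, formed anew without Zfp-named genes, had a median of -0.0088. The causes were not tested. At this depth 6.05% of genes under 1 CPM were called and 58.1% of those at 10 CPM or more, and thinning the counts to 1 in 2 lost 48.1% and 11.4% of these calls.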

Other observations

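Further gene groups moved by small amounts in Cys-starved cells. Of 23 genes of purine and pyrimidine synthesis 14 fell (60.9%) and 2 rose (1 without unstarved replicate 3), with a median log2 fold change of -0.11. Prps2, which makes the ribose precursor of nucleotides, fell from 39.5, 36.7 and 37.8 CPM to 26.9, 28.3 and 29.3 CPM (-0.43 ± 0.042, adjusted p = 3.3e-08 in edgeR's quasi-likelihood test, as below). Rrm1, the large subunit of ribonucleotide reductase, fell by 0.29 and Paics, an enzyme of purine synthesis, by 0.25 on the log2 scale. Of 21 enzymes of DNA and H3K4 methylation and demethylation, which use or undo methyl transfer from S-adenosylmethionine, 11 fell (52.4%) and 4 rose. The de novo DNA methyltransferase genes Dnmt3a and Dnmt3b both fell by 0.38 on the log2 scale, and each overlaps an antisense gene. Rbbp5, a core subunit of H3K4 methyltransferase complexes, rose from 89.8, 88.7 and 91.8 CPM to 119, 118 and 123 CPM, and the DNA demethylase gene Tet3 rose by 0.36.

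In other groups more genes rose than fell, against 24.3% higher and 30.4% lower among genes with at least 5 CPM. Of 33 genes of tRNA and codon modification 14 rose (42.4%) and 9 fell, with Trmt61a, a tRNA methyltransferase, at 0.56 and Mocs3, which acts in tRNA thiolation, at 0.54. Of 17 factors of nonsense-mediated decay 8 rose (47.1%) and 5 fell, among them the helicase gene Upf1 (0.31) and the exon junction gene Rbm8a (-0.23). Of 16 clock genes 5 rose (31.2%) and 1 fell. Nfil3, a leucine zipper repressor, rose from 4.33, 4.80 and 4.60 CPM to 7.59, 7.51 and 8.65 CPM, Ciart by 0.75 and Per2 by 0.70, while Nr1d1 (REV-ERBα) fell by 0.32 on the log2 scale. Unlike these groups, the list of metallothioneins and zinc genes did not stand out, with 4 of 18 higher (22.2%), 5 lower (27.8%) and a median of -0.03. Within it the metallothioneins, small Cys-rich proteins that bind zinc and copper, rose in both forms detected well. Mt1 was at 72.1, 77.0 and 70.5 CPM and then at 112, 113 and 110 CPM (0.61 ± 0.039, adjusted p = 4.1e-11), and Mt2 rose by 0.54. Paics overlaps Ppat, Upf1 overlaps Cers1 and Gdf1, and Nr1d1 overlaps Thra.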
